A study of Mus musculus with 45 samples.

Results

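Interleukin-1 family ligands and receptors were followed through an 8 h response of mouse embryonic fibroblasts (MEFs) to IL-1b, TNF and LPS. The members were 7 genes, chosen by symbol from the 37991 genes of the count table: the agonist ligands Il1a and Il1b, the antagonist ligand Il1rn, the ligand Il33, the receptors Il1r1 and Il1rl1, and the shared receptor chain Il1rap. Il1a and Il1b encode the cytokines IL-1 alpha and IL-1 beta, which bind the receptor encoded by Il1r1. That receptor then recruits the accessory chain encoded by Il1rap, and the pair signals through MyD88 and IRAK kinases to NF-kB and MAP kinases. Il1rn encodes the antagonist that occupies Il1r1 without recruiting the accessory chain. IL-33, a nuclear cytokine released from damaged cells, binds the receptor ST2 encoded by Il1rl1, which uses the same accessory chain. In fibroblasts this family is known for relaying and amplifying inflammatory signals, and Il1rl1 was first known as a gene induced in growth-stimulated fibroblasts.

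The cells were primary MEFs of C57BL/6 embryos, either WT or p53-/-. The series describes the p53-/- cells as 2 biological replicates (KO-1 and KO-2) and the WT cells as littermate controls. Cells were kept overnight in low-serum medium, then given IL-1b at 10 ng/ml, TNF at 10 ng/ml or LPS at 100 ng/ml, and polyadenylated RNA was sequenced at 0, 0.5, 1, 3 and 8 h. Each stimulus had its own 0 h libraries, and no untreated library was taken at a later time. Each of the 15 combinations of stimulus and time held 1 WT library and 2 p53-/- libraries, 45 libraries in all. All groups of a genotype therefore shared the serum withdrawal, and differed in the agent and its duration. The labels do not say whether KO-1 and KO-2 came from separate embryos. With a single WT line, a difference between genotypes cannot be told apart from a difference between this line and any other. In a cell mixture, fewer cells of a type and less RNA per cell cannot be told apart.

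Gene counts summed to 5619870 to 15355994 per library (median 9347770). Values below are raw counts or CPM, which are counts scaled to the library total after TMM normalisation. Trp53, the gene deleted in the p53-/- cells, was at 158 to 293 CPM in WT and at 50.9 to 86.5 CPM in p53-/- libraries. Summed levels of 10 fibroblast markers (collagens, Pdgfra, Pdgfrb, Thy1, Dcn, Lum and Fn1) were at 29026 to 39281 CPM. All 14 macrophage markers had counts in all 45 libraries, with Csf1r at 31.0 to 54.9 CPM and Ptprc at 5.16 to 18.7 CPM. Of 6 mast cell genes, Fcer1a and Tpsb2 had 0 counts in all 45 libraries, and Cpa3 and Mcpt4 had at most 1 count in any. Kit had at most 21 counts (1.88 CPM) and Ms4a2 at most 7. Kit had 0 counts in 1 library and Ms4a2 in 6. In 3 libraries the deviation of genes from their mean over the libraries of the line went down most with transcript length. These were both p53-/- libraries at 0.5 h of IL-1b (KO-1 had a Spearman rho of -0.42 over its genes and KO-2 one of -0.60) and the WT library at 3 h of IL-1b (-0.49). The deviation went up most with transcript length in the TNF series, with a rho of 0.41 in KO-1 at 0 h. It was 0.37 in KO-1 at 8 h and 0.35 in WT at 0.5 h of TNF.

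Promoter sequences of the members are given first, because Il1a and Il1b moved together and the receptor genes did not follow one course. RefSeq (GRCm38.p6) listed 12 promoters for the 7 members. Shown are the 250 bases before the start of transcription of the 2 ligand genes with the largest rises and of both promoters of Il1rl1, the most abundant member. Capitals mark matches to 3 motifs, searched on either strand and found without overlap. The motif of the AP-1 factors, which are dimers of Jun and Fos, was spelled TGANTCA. The motif of the C/EBP factors, which act in inflammatory and acute phase genes, was spelled TTGCNNAA. The TATA box, which places the start of transcription, was spelled TATAAA. The promoter of Il1a lies at chr2:129309973-129310222 and that of Il1b at chr2:129371140-129371389, both on the minus strand. The promoters of Il1rl1 lie at chr1:40429320-40429569 (promoter 1) and chr1:40439379-40439628 (promoter 2), both on the plus strand.
Il1a: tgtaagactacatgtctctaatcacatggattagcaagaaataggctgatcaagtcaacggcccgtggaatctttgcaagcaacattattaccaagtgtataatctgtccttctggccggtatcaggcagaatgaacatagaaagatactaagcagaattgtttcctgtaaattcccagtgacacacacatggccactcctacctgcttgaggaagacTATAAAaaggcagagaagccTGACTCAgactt
Il1b: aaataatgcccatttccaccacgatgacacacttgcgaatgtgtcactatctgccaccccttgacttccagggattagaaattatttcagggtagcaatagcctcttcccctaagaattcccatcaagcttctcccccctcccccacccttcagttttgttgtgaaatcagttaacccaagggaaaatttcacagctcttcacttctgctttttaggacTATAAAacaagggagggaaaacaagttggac
Il1rl1 promoter 1: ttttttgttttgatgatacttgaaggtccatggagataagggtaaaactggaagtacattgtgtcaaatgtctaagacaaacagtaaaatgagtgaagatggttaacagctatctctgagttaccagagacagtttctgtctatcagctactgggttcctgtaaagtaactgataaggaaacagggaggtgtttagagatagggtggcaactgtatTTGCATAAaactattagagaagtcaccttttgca
Il1rl1 promoter 2: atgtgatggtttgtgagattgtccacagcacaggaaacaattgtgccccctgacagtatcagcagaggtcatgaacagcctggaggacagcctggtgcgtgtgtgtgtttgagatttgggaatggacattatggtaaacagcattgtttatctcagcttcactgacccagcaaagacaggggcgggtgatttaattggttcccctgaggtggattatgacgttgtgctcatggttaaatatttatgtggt

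In Il1a the AP-1 letters TGACTCA ended 6 bases before the start and the TATA box lay 32 to 27 bases before it. In Il1b the TATA box lay 31 to 26 bases before the start and no AP-1 letters were found. Promoter 1 of Il1rl1 held the C/EBP letters TTGCATAA 34 to 27 bases before the start, and promoter 2 held none of the letters searched. The first listed promoter of Il1rn held TGAGTCA, 141 to 135 bases before the start. The first promoter of Il1r1 held TTGCTGAA, and the second promoter of Il33 held TTGCATAA and a TATA box 29 to 24 bases before the start. The first promoter of Il33 held the letters of the TATA box 203 to 198 bases before the start. Il1rap had no match. The kappaB consensus and the ISRE consensus matched none of the 12 promoters. Among the 32851 promoters of the table, 6.75% held the AP-1 letters, 9.56% the C/EBP letters, 5.0% the kappaB consensus, 2.98% the ISRE consensus and 12.4% the TATA box. A match is a description of letters, not a site of binding, and gene counts do not say which promoter was used.

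Of the 7 members, all passed the filter of at least 1 CPM in at least 2 libraries. In p53-/- cells no member was called at 0.5 h of IL-1b, 1 at 1 h, 6 at 3 h and 7 at 8 h (edgeR's quasi-likelihood test, Benjamini-Hochberg adjusted p under 0.05 over 13851 genes, each time against the 0 h libraries of its own series). After TNF the counts were 1, 4, 6 and 6. After LPS they were 1, 4, 6 and 6 as well. Every one of these calls was a rise. Among all genes tested, the share called higher was 2.64%, 2.78%, 21% and 12.5% at 0.5, 1, 3 and 8 h of IL-1b. It was 0.606%, 3.05%, 18.4% and 14.5% at the same times of TNF, and 0.433%, 2.79%, 21.9% and 17% at those of LPS. Il33 was the member without a call at 3 h of each stimulus, and at 8 h of TNF and LPS. At 1 h of TNF the call of Il1a was lost without either p53-/- replicate. Those of Il1b and Il1rap at 1 h of TNF were lost without KO-2.

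Il1a (ENSMUSG00000027399, mm9 chr2:129125346-129135708, minus strand) encodes IL-1 alpha, an agonist that is active as its precursor. It was near 0 before stimulation, with 1 count over the 3 WT libraries at 0 h and 5 and 4 counts over the 3 libraries of KO-1 and of KO-2. Through 0, 0.5, 1, 3 and 8 h of LPS the raw counts were 3, 19, 104, 492 and 1632 in KO-1. They were 2, 11, 83, 412 and 1366 in KO-2, and 0, 3, 44, 226 and 980 in WT. Il1a thus climbed at each step in all 3 lines, and every library at 3 and 8 h was above every library at 0 h. In p53-/- cells the level at 8 h was 675 times that at 0 h, with a 95% interval for counting error alone of 289 to 2081 (5 counts at 0 h). The log2 change was 9.32 ± 0.30 (SE, n = 2 libraries per group), with an adjusted p of 1.1e-18 from edgeR's quasi-likelihood test.

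The other stimuli gave Il1a far fewer counts. After IL-1b, KO-1 had 0, 2, 7, 18 and 24 counts and KO-2 had 1, 3, 7, 40 and 34 counts at the 5 times, while WT had 0, 1, 16, 131 and 34. After TNF, KO-1 had 2, 7, 20, 23 and 75, KO-2 had 1, 8, 16, 29 and 32, and WT had 1, 6, 11, 52 and 13. Libraries differed in depth, and on the CPM scale KO-1 and KO-2 were at 5.27 and 5.47 CPM at 8 h of TNF. In WT the highest count after IL-1b or TNF was that at 3 h, whereas after LPS it was that at 8 h. Since counts at 0 h were so low, stimuli were also compared at the same time. At 8 h the level of Il1a in p53-/- cells was 28.4 times higher with LPS than with TNF (152 ± 27 against 5.37 ± 0.14 CPM, SD, n = 2 each, edgeR adjusted p = 1.85e-16). Against IL-1b it was 49.3 times higher (edgeR adjusted p = 3.67e-17). IL-1b and TNF themselves did not differ past the threshold at 3 h (log2 difference 0.03 ± 0.35 SE, edgeR adjusted p = 0.988) or at 8 h (-0.80 ± 0.30, 0.104). Gm14023, annotated on the opposite strand of Il1a, had at most 7 counts in any library.

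Il1b (ENSMUSG00000027398, mm9 chr2:129190306-129196875, minus strand) encodes the IL-1 beta precursor, which needs cleavage by an inflammasome caspase. It had 0 counts in all 3 WT libraries at 0 h and 3 counts over the 6 p53-/- libraries. After LPS the counts at 0, 0.5, 1, 3 and 8 h were 1, 17, 118, 706 and 2366 in KO-1. They were 1, 29, 124, 704 and 2134 in KO-2, and 0, 10, 99, 289 and 1870 in WT. Counts of Il1b were higher at each step in every line, as those of Il1a were. At 0.5 h of LPS it was the only member called (log2 change 4.43 ± 0.67 SE, edgeR adjusted p = 0.000281), a call that was lost without KO-2 (0.19). At 8 h it stood 2534 times above 0 h in p53-/- cells, with a counting interval of 701 to 20929 (2 counts at 0 h). In WT it was at least 584-fold higher at 8 h than at 0 h, against a floor of 3 counts in the single 0 h library.

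IL-1b and TNF also brought the Il1b transcript up, to much lower levels. After IL-1b, KO-1 had 0, 2, 1, 37 and 55 counts and KO-2 had 0, 2, 4, 35 and 75, while WT had 0, 0, 4, 35 and 4. Lines were alike at 3 h and apart at 8 h, where both p53-/- libraries were above the WT library. After TNF, KO-1 had 1, 10, 22, 19 and 128, KO-2 had 0, 27, 22, 26 and 59, and WT had 0, 8, 9, 24 and 30. Libraries differed in depth, and on the CPM scale KO-1 and KO-2 were at 9.0 and 10.1 CPM at 8 h of TNF. WT went from 2.12 CPM at 3 h to 4.73 CPM at 8 h of TNF. In p53-/- cells the rise with IL-1b was at least 32.1-fold at 3 h and at least 53.7-fold at 8 h, against a floor of 3 counts over both 0 h libraries. With TNF it was already called at 0.5 h (log2 change 4.44 ± 0.86 SE, edgeR adjusted p = 0.00537), a call that was lost without KO-1 (0.08), without KO-2 (0.64) and with DESeq2 (0.17). Against the single count over both p53-/- 0 h libraries of the TNF series, the ratio with TNF was 26.2 at 0.5 h (counting interval 4.42 to 1063) and 155 at 8 h (27.5 to 6163). At 8 h the level with LPS was 24.3 times that with TNF and 33.1 times that with IL-1b (228 ± 29, 9.55 ± 0.78 and 6.89 ± 1.6 CPM, SD, n = 2 each, edgeR adjusted p = 1.46e-17 and 4.6e-18). Il1bos, on the opposite strand, had at most 2 counts in any library.

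**Figure D1:**
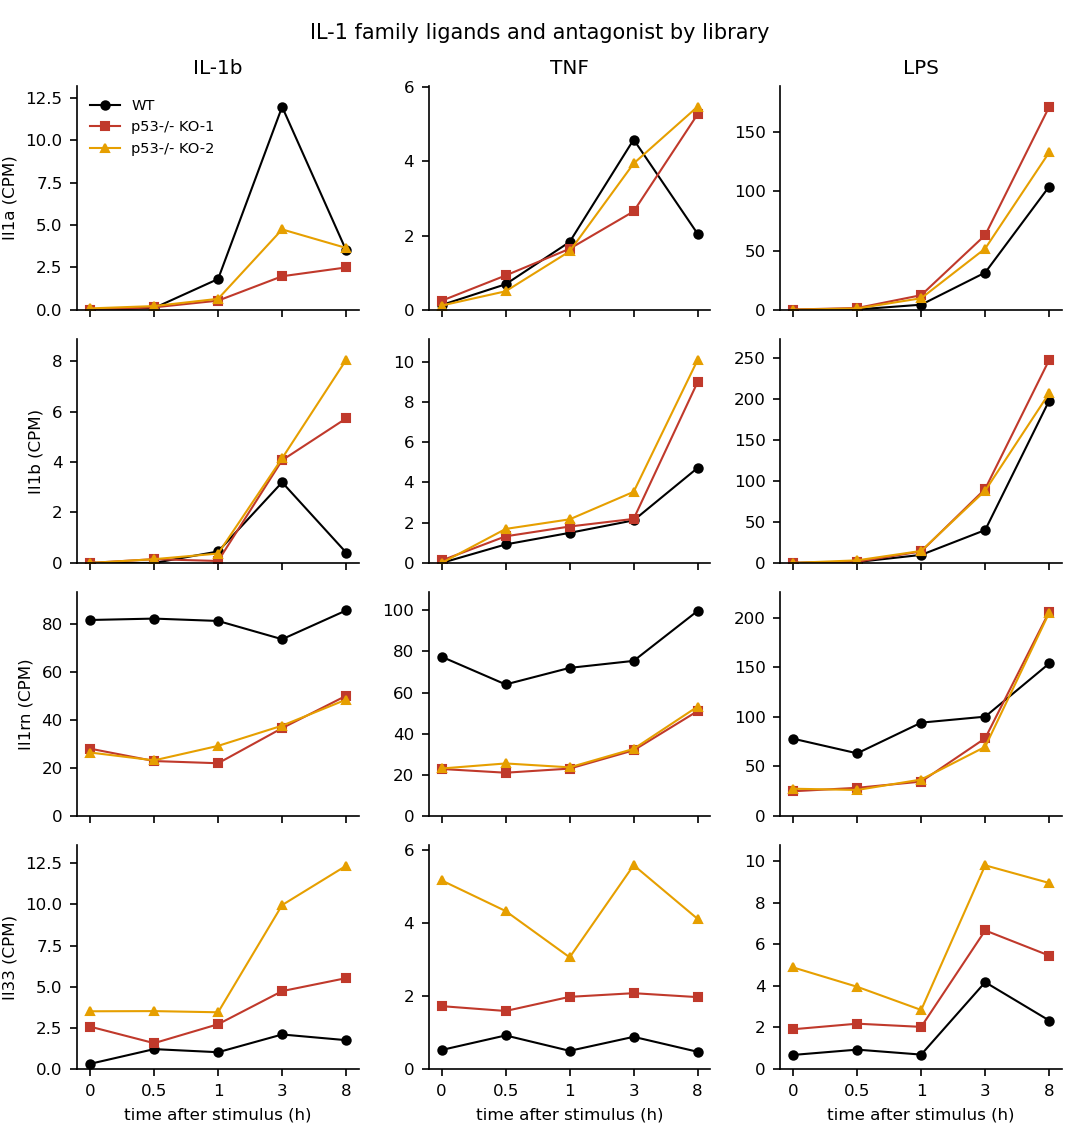
Levels of Il1a, Il1b, Il1rn and Il33 in CPM (vertical axis, separate scale in each panel) against the hours of stimulation (0, 0.5, 1, 3 and 8, evenly spaced) for IL-1b, TNF and LPS, with one line of points each for WT, KO-1 and KO-2. Il1a, Il1b and Il1rn reach their highest levels at 8 h of LPS, where Il1b is at 198 to 248 CPM, while Il33 does not exceed 12.3 CPM.

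Macrophages are the best known source of both agonists, and macrophage markers were present in these cultures. Summed over the 14 markers, their level with LPS was 474 CPM at 0 h, 556 CPM at 3 h and 500 CPM at 8 h in KO-1. In KO-2 it was 415, 448 and 399 CPM at these times. In WT it was 514 CPM at 0 h, 674 CPM at 3 h and 538 CPM at 8 h. Lyz2 was the highest of the 14 markers, with a median of 238 CPM over the 45 libraries. A sum of markers does not measure transcripts per cell. Of the 14 markers, 4 were called higher and 1 lower at 3 h of LPS, and 5 higher and 5 lower at 8 h. Among all genes 21.9% were called higher and 22.1% lower at 3 h, and 17% and 17.2% at 8 h. Which cells held the Il1a, Il1b and Il1rn transcripts was not tested.

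Il1rn (ENSMUSG00000026981, mm9 chr2:24192373-24207014, plus strand), the receptor antagonist, differed from the agonists in being well expressed before stimulation. At 0 h it was at 77.4 to 81.5 CPM in the 3 WT libraries and at 22.9 to 28.0 CPM in the 6 p53-/- libraries. With LPS, KO-1 passed through 25, 28.5, 34.7, 78.4 and 206 CPM at 0, 0.5, 1, 3 and 8 h. KO-2 passed through 27.6, 26.3, 36.8, 69.8 and 205 CPM. WT passed through 78.0, 63.2, 94.2, 100 and 154 CPM, so that the order of the genotypes at 0 h was turned over at 8 h. In p53-/- cells the log2 change was 0.44 ± 0.11 at 1 h, 1.49 ± 0.10 at 3 h and 2.97 ± 0.10 at 8 h (SE, edgeR adjusted p = 0.00993, 4.44e-12 and 1.64e-18). The call at 1 h was lost without either p53-/- replicate.

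IL-1b and TNF raised Il1rn later and less. With IL-1b it was at 36.5 and 37.6 CPM at 3 h and at 50.0 and 48.4 CPM at 8 h in KO-1 and KO-2. With TNF the values were 31.9 and 32.6 CPM at 3 h and 51.0 and 53.2 CPM at 8 h. All of these lay above the p53-/- libraries at 0 h, and the p53-/- libraries at 8 h of LPS lay above them all. The log2 change at 8 h was 0.85 ± 0.10 with IL-1b and 1.18 ± 0.11 with TNF (SE, edgeR adjusted p = 5.39e-07 and 9.12e-09). WT libraries stayed at 73.5 to 85.5 CPM through IL-1b and at 64.0 to 99.7 CPM through TNF.

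The changes of Il1rn after LPS differed from those after TNF and after IL-1b. In an F test over the 4 times in p53-/- cells, edgeR's adjusted p was 5.51e-10 for LPS against TNF and 3.96e-11 for LPS against IL-1b. The largest differences were at 8 h, with a log2 of 1.79 ± 0.14 and 2.11 ± 0.14 (SE). For LPS against TNF, 4 members passed this test (Il1a, Il1b, Il1rn and Il1rap), where 5.15% of all genes did. For LPS against IL-1b, 2 members passed (Il1a and Il1rn), against 6.9% of all genes. For Il1b both p53-/- 0 h libraries of the IL-1b series had 0 counts, so its change after IL-1b could not be sized. With pooled 0 h libraries Il1b passed the F test (edgeR adjusted p = 8.99e-23), as did Il1r1, Il1rl1 and Il1rap. The call of Il1a was lost without KO-1 in both comparisons (0.21 and 0.079) and without KO-2 in the latter (0.63). For IL-1b against TNF, 2 members passed (Il1b, adjusted p = 0.00237, and Il1rap, 0.0302), against 1.42% of all genes. This last count moved between 0 and 6 under other settings. With the line as a replicate block, Il33 also passed for LPS against TNF (0.0152), Il1rl1 for LPS against IL-1b (0.00412), and Il33, Il1r1 and Il1rl1 for IL-1b against TNF (0.00607, 0.0257 and 0.0252). The 2 LPS comparisons share the LPS libraries.

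Il33 (ENSMUSG00000024810, mm9 chr19:29999604-30035208, plus strand) was low in every library. At 0 h WT had 3, 4 and 6 counts, KO-1 had 31, 14 and 20, and KO-2 had 40, 44 and 58 in the IL-1b, TNF and LPS series. KO-2 was above KO-1 in each series, and both were above WT. With IL-1b the counts at 3 and 8 h were 43 and 53 in KO-1, 84 and 115 in KO-2, and 23 and 17 in WT. With LPS they were 52 and 52 in KO-1, 78 and 92 in KO-2, and 30 and 22 in WT. With TNF they were 18 and 28 in KO-1, 41 and 24 in KO-2, and 10 and 3 in WT. Libraries differed in depth, and on the CPM scale KO-1 went from 1.72 CPM at 0 h to 1.97 CPM at 8 h of TNF and KO-2 from 5.16 to 4.11 CPM. Over 8 h of IL-1b KO-1 went from 2.58 to 5.52 CPM and KO-2 from 3.51 to 12.3 CPM. Only the change at 8 h of IL-1b was called (log2 1.55 ± 0.51 SE, edgeR adjusted p = 0.028), and the call was lost without KO-1 (0.081), without KO-2 (0.39) and with DESeq2 (0.06). At 3 h the values just missed, with a log2 of 1.26 ± 0.53 after IL-1b and 1.25 ± 0.52 after LPS (edgeR adjusted p = 0.0575 and 0.0543). Both fell under the threshold with the line as a replicate block (7.2e-05 and 3.4e-05), as did 8 h of LPS (3.0e-04), for which the value without it was 0.116. Markers of epithelial cells were followed as well, pooled over the 3 stimuli. Their 6 genes had a summed level with a median of 28.0 CPM (lowest 27.0) at 0 h and 42.5 CPM (34.2 to 51.1) at 3 h in p53-/- libraries, without overlap between these times. In p53-/- libraries at 8 h the sum was at a median of 30.1 CPM (28.1 to 34.3). Il33 had its highest group mean in p53-/- cells at 8 h of IL-1b (8.93 CPM). In WT the sum was at 7.94 to 9.27 CPM at 0 h and 9.0 to 10.6 CPM at 3 h. The sum was mostly Krt18 and Krt8 (at most 36.3 and 11.6 CPM in a library), and Epcam had at most 7 counts. Of the 5 that passed the filter, 3 were called higher at 3 h of IL-1b, 1 at 3 h of TNF and 3 at 3 h of LPS, and none at 8 h. Taken by stimulus, the median log2 change of the 5 was 0.78, 0.49 and 0.73 at 3 h of IL-1b, TNF and LPS. At 8 h it was 0.87, 0.01 and 0.06 in the same order. Among all genes 21%, 18.4% and 21.9% were called higher at 3 h, and 12.5%, 14.5% and 17% at 8 h. The part of these markers in the values of Il33 was not tested.

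Il1r1 (ENSMUSG00000026072, mm9 chr1:40281925-40373043, plus strand), the signalling receptor of both agonists, had a transient rise. At 0 h it was at 54.3 to 58.4 CPM in WT and 43.0 to 49.9 CPM in p53-/- libraries, and until 1 h no library exceeded 64.5 CPM. At 3 h KO-1 and KO-2 were at 152 and 154 CPM with IL-1b, 119 and 125 CPM with TNF, and 156 and 169 CPM with LPS. The WT libraries at 3 h were at 114, 136 and 165 CPM in the same order. By 8 h the p53-/- libraries had come down to 58.0 to 75.7 CPM and the WT libraries to 79.5 to 93.1 CPM. Every library at 3 h was above every library at the other times.

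From 3 to 8 h the transcript of Il1r1 fell by 1.32 on the log2 scale with IL-1b, by 0.88 with TNF and by 1.19 with LPS in p53-/- cells (edgeR adjusted p = 6.32e-12, 2.61e-08 and 2.39e-11). It was the only member called lower between these times, where 17%, 12.6% and 18% of all genes were. At 8 h it was still above 0 h, by a log2 of 0.43 ± 0.09, 0.47 ± 0.09 and 0.60 ± 0.09 (SE, edgeR adjusted p = 0.000700, 0.000326 and 5.25e-06). Without KO-2 the call at 8 h of IL-1b was lost (0.15). The level at 3 h was higher with LPS than with TNF (log2 0.42 ± 0.08 SE, edgeR adjusted p = 0.000972), a call that was lost without KO-1 (0.062) or KO-2 (0.11). It was also higher with IL-1b than with TNF (0.33 ± 0.08, 0.0327), which was lost without any one of its 4 libraries (0.089 to 0.27) and with DESeq2 (0.085). LPS and IL-1b differed at 3 h by a log2 of 0.09 ± 0.08 (0.73).

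Il1rl1 (ENSMUSG00000026069, mm9 chr1:40486415-40522260, plus strand), the receptor for IL-33, was the most abundant member per length. At 0 h it was at 1092, 1186 and 1203 CPM in WT, at 160, 163 and 172 CPM in KO-1 and at 203, 214 and 223 CPM in KO-2. KO-1 and KO-2 did not overlap, and both were far below WT. At 3 h KO-1 and KO-2 stood at 1302 and 1724 CPM with IL-1b, 1212 and 1324 CPM with TNF, and 1582 and 1828 CPM with LPS. At 8 h they stood at 1210 and 1308, 1509 and 2012, and 2149 and 2198 CPM in the same order. At 3 and 8 h every p53-/- library was thus above every WT library of 0 h. In WT the 3 h values were 3206, 3215 and 4491 CPM and the 8 h values 3095, 4085 and 4212 CPM, above all p53-/- libraries.

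The log2 change of Il1rl1 in p53-/- cells was 2.98 ± 0.16 with IL-1b, 2.79 ± 0.16 with TNF and 3.14 ± 0.16 with LPS at 3 h, and 2.72 ± 0.16, 3.26 ± 0.17 and 3.49 ± 0.17 at 8 h (SE). All 6 were called, with edgeR adjusted p between 2.6e-12 and 4.31e-15. At 1 h the rise was smaller, with a log2 of 0.62 ± 0.15, 0.85 ± 0.16 and 0.60 ± 0.15 (edgeR adjusted p = 0.0121, 0.000729 and 0.019). The 1 h calls with IL-1b and LPS were lost without KO-1 (0.56 and 0.63), that with LPS also without KO-2 (0.0586), and both without any one of their 4 libraries other than KO-2 at 0 h. From 3 to 8 h only TNF gave a call (log2 0.47 ± 0.15 SE, edgeR adjusted p = 0.0229), which was lost without KO-1 (0.061), without KO-2 (0.31) and with DESeq2 (0.052). With LPS the change from 3 to 8 h was a log2 of 0.35 ± 0.15 (edgeR adjusted p = 0.0675), and it was called with the line as a replicate block (0.0123), without a filter on low counts (7.6e-05) and with the trend on transcript length and GC content removed (0.0479). With IL-1b it was -0.27 ± 0.15 (0.179), called without a filter (0.00102) and without KO-1 at 3 h (0.0392). At 8 h the level was higher with LPS than with IL-1b (log2 0.79 ± 0.15, edgeR adjusted p = 0.000546). The table holds one count per gene, so the membrane and soluble forms of ST2 were not separated.

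Il1rap (ENSMUSG00000022514, mm9 chr16:26581790-26730203, plus strand), the co-receptor for both receptors, rose more slowly and kept rising. At 0 h it was at 32.2 to 33.2 CPM in WT and at 18.2 to 23.6 CPM in p53-/- libraries. At 3 h KO-1 and KO-2 were at 33.5 and 35.8 CPM with IL-1b, 34.4 and 32.2 CPM with TNF, and 43.1 and 41.1 CPM with LPS. At 8 h they were at 53.5 and 55.4, 44.0 and 46.9, and 73.0 and 68.5 CPM. Each p53-/- library at 8 h was above each at 3 h, and each at 3 h above each at 0 h. WT went from 32.3 to 96.5 CPM over 8 h of IL-1b, from 33.2 to 74.2 CPM over TNF and from 32.2 to 99.9 CPM over LPS. The log2 change at 8 h in p53-/- cells was 1.37 ± 0.10, 1.22 ± 0.11 and 1.73 ± 0.10 (SE, edgeR adjusted p = 1.16e-10, 5.0e-09 and 1.38e-13).

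Il1rap and Il1r1 therefore moved in opposite directions between 3 and 8 h. The rise of Il1rap from 3 to 8 h was 0.65 ± 0.10, 0.44 ± 0.10 and 0.75 ± 0.09 (log2, SE, edgeR adjusted p = 8.07e-06, 0.00214 and 5.71e-07), and the call with TNF was lost without KO-2 (0.068). Called higher between these times were 3 members with IL-1b (Il1b, Il1rn and Il1rap), 4 with TNF (these and Il1rl1) and 4 with LPS (Il1a, Il1b, Il1rn and Il1rap). Among all genes 18.5%, 12.3% and 20.2% were. With IL-1b, the call of Il1b was lost without KO-2 (0.39) and that of Il1rn without KO-1 (0.051). For Il1rap the change with LPS also differed from that with TNF over the 4 times (edgeR adjusted p = 0.00384), with a log2 difference of 0.51 ± 0.15 at 8 h. That call was lost without either p53-/- replicate (0.2 and 0.16). Gm20319, on the opposite strand of Il1rap, had at most 1 count in any library.

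**Figure D2:**
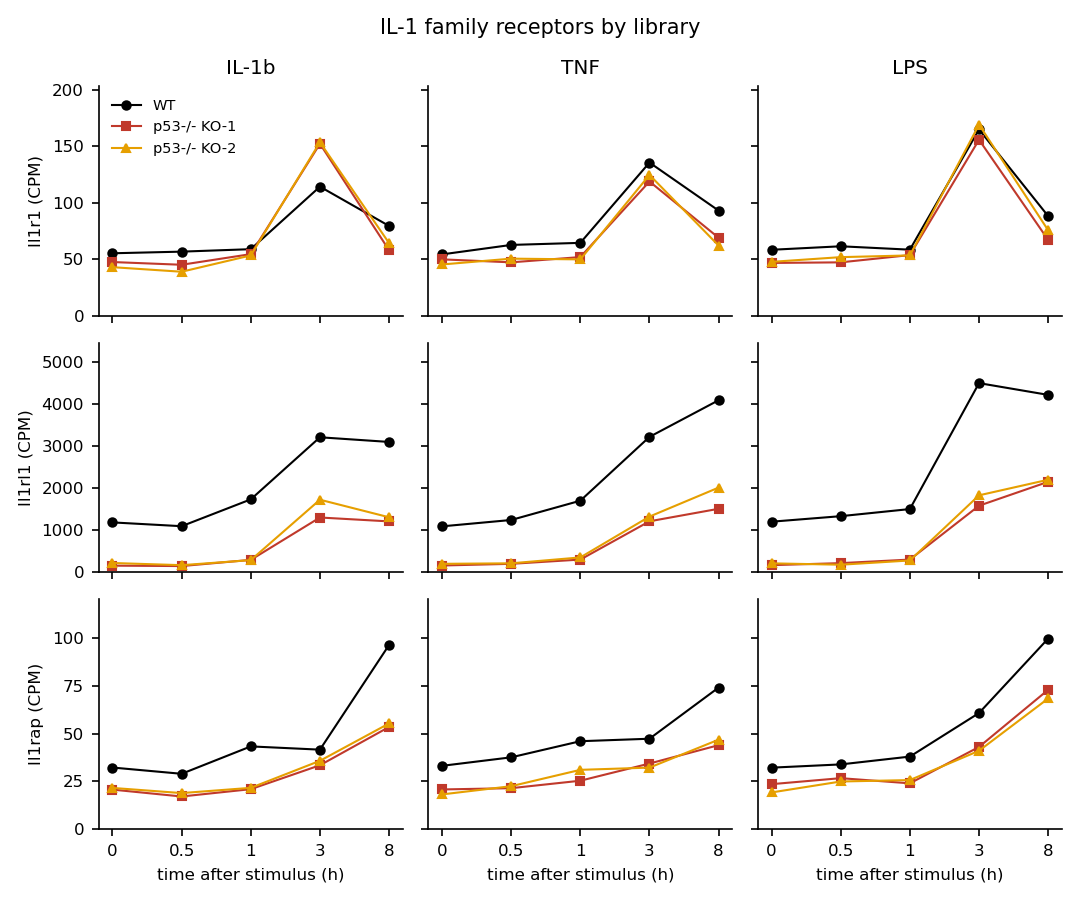
Levels of Il1r1, Il1rl1 and Il1rap in CPM (vertical axis, shared within a gene) against hours (evenly spaced) of IL-1b, TNF and LPS, with one line of points each for WT, KO-1 and KO-2. Il1r1 peaks at 3 h in every series, Il1rap is highest at 8 h, and Il1rl1 in WT lies above KO-1 and KO-2 throughout.

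**Figure D3:**
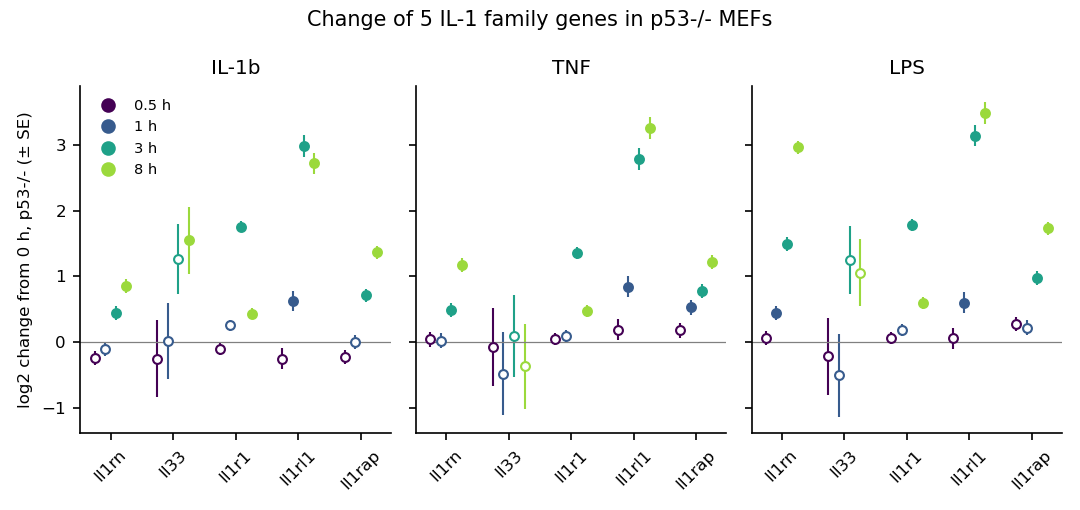
Log2 change from 0 h (vertical axis, points with SE bars) at 0.5, 1, 3 and 8 h of IL-1b, TNF and LPS in p53-/- cells for Il1rn, Il33, Il1r1, Il1rl1 and Il1rap, with filled points for an adjusted p under 0.05. Il1rn separates LPS from the other stimuli at 8 h (2.97 against 0.85 and 1.18), while Il1r1 falls back from 1.76 to 0.43 with IL-1b. Il1a and Il1b are not drawn, since their 0 h counts were near 0.

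Levels at the same time were compared between stimuli in p53-/- cells for all members. With LPS against TNF, 5 members were called higher at 3 h (Il1a, Il1b, Il1rn, Il1r1 and Il1rap) and 4 at 8 h (Il1a, Il1b, Il1rn and Il1rap), where 4.93% and 10.6% of all genes were (edgeR's quasi-likelihood test). With LPS against IL-1b, 3 were called higher at 3 h (Il1a, Il1b and Il1rn) and 5 at 8 h (these with Il1rl1 and Il1rap), where 2.93% and 6.81% of all genes were. No member was lower with LPS. The call of Il1rap was lost at 3 h against TNF with DESeq2 (0.21) and without any one of the 4 libraries, and at 8 h against IL-1b without KO-1 (0.38) or KO-2 (0.12). Between IL-1b and TNF, Il1r1 was higher with IL-1b at 3 h (0.931% of all genes were higher) and Il1rl1 was lower with IL-1b at 8 h (log2 -0.48 ± 0.15 SE, adjusted p = 0.0479, where 4.17% of all genes were lower). The call for Il1rl1 was lost without either p53-/- replicate (0.088 and 0.41) and with DESeq2 (0.081). Il33 was not called in any of these comparisons, with a log2 of 0.97 ± 0.55 at 3 h and 1.72 ± 0.55 at 8 h for IL-1b against TNF, and 1.14 ± 0.55 and 1.42 ± 0.56 for LPS against TNF (SE, edgeR adjusted p = 0.468, 0.0525, 0.233 and 0.0757). All 4 passed with the line as a replicate block (0.0271, 5.81e-05, 0.00179 and 0.000282). With that block Il1rl1 was also higher with LPS than with TNF at 3 h (0.0132) and 8 h (0.0417), for which the values without it were 0.0832 and 0.164.

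Per kilobase of annotated exon, which allows genes to be set beside each other, Il1rl1 was the highest member at 0 h, at 158 to 174 CPM per kb in WT and 23.1 to 32.3 CPM per kb in p53-/- cells. Il1rn followed in WT at 14.0 to 14.7 CPM per kb, above Il1r1 at 8.54 to 9.18 and Il1rap at 2.83 to 2.92. In p53-/- cells the order of the next members changed, with Il1r1 at 6.76 to 7.84 CPM per kb, Il1rn at 4.13 to 5.06 and Il1rap at 1.60 to 2.07. Il33 (0.596 to 1.79) overlapped with Il1rap in p53-/- cells. Il1a and Il1b were at most 0.146 and 0.0645 CPM per kb in any library at 0 h, and their ranges overlapped. At 8 h of LPS in p53-/- cells Il1b had reached 120 ± 15 and Il1a 77.0 ± 14 CPM per kb (SD, n = 2), behind Il1rl1 at 315 ± 5.0 and ahead of Il1rn at 37.1 ± 0.14, Il1r1 at 11.2 ± 0.95 and Il1rap at 6.23 ± 0.28. After IL-1b or TNF the agonists stayed below Il1rn at 8 h, with Il1b at 3.61 ± 0.86 and 5.01 ± 0.41 and Il1rn at 8.89 ± 0.20 and 9.42 ± 0.28 CPM per kb.

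**Figure D4:**
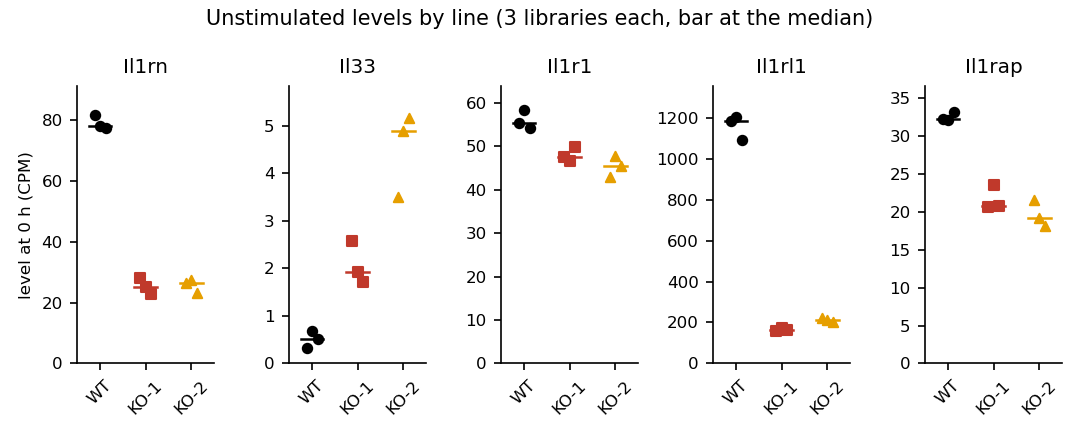
Level of Il1rn, Il33, Il1r1, Il1rl1 and Il1rap at 0 h in CPM (vertical axes from 0, one scale per gene) by line, with 1 point for each of the 3 libraries of WT, KO-1 and KO-2 and a bar at the median. Il1rl1, Il1rn, Il1r1 and Il1rap lie higher in WT without overlap, and Il33 lies higher in both p53-/- lines, with KO-2 above KO-1.

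For the level in each genotype the 15 libraries of a line were added up (1 WT sum against 2 p53-/- sums, 1 residual degree of freedom, edgeR over 12918 genes). All 7 members were called, 3 higher and 4 lower in p53-/-, where 21.1% of all genes were called higher and 19.2% lower. Il1rl1 was 3.20 times higher in WT (2299 CPM against 704 and 731, log2 difference -1.68 ± 0.06 SE, edgeR adjusted p = 4.81e-06). Il1rn was 1.94 times and Il1rap 1.59 times higher in WT (edgeR adjusted p = 1.37e-05 and 9.33e-05). Il1r1 differed least of these, 1.2 times (0.00498). Il33 was 3.35 times higher in p53-/- (1.25 CPM against 2.87 and 5.51, edgeR adjusted p = 0.00968).

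For Il1a and Il1b the genotype difference in summed counts was small and came mostly from LPS. The WT sum of Il1b was 2382 counts, of which 1870 were from the library at 8 h of LPS. Il1a was 1.27 times and Il1b 1.22 times higher in p53-/- (edgeR adjusted p = 0.0258 and 0.0102). Neither was called with DESeq2 (0.066 and 0.054) or in a fit on the 45 single libraries (0.13 and 1.0). The marker sums also differed between genotypes: at 0 h the 14 macrophage markers summed to 496 to 514 CPM in WT and 379 to 474 CPM in p53-/- cells. The 6 endothelial markers, of which Kdr was the highest, summed to 12.9 to 16.3 CPM in WT and 19.7 to 22.3 CPM in p53-/- cells. The epithelial markers, given beside Il33, were also higher in p53-/- cells without overlap. The part of these markers in the genotype differences was not tested.

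Whether the response differed by genotype was tested as a difference in change from 0 h, over the 4 times of each stimulus. With IL-1b 5 members passed (Il1b, Il1rn, Il1r1, Il1rl1 and Il1rap), where 5.74% of all genes did. With TNF only Il1rl1 passed, against 0.462% of all genes, and with LPS Il1rn and Il1rl1 did, against 2.66%. With the line as a replicate block Il1rn also passed with TNF (0.0252) and Il1b with LPS (0.0357). Il1b with LPS passed as well without a filter on low counts (0.00075), with the trend on transcript length and GC content removed (0.028) and with pooled 0 h libraries (0.0384). For Il1b with LPS no size of the difference could be fitted, since WT had 0 counts at 0 h. The p53-/- libraries at 0 h of the LPS series had 2 counts of Il1b in all. The spread of the WT groups, which had no second library, was taken from the p53-/- groups. The rise of Il1rn was larger in p53-/- cells, by a log2 of 1.13 ± 0.16 at 3 h and 1.99 ± 0.16 at 8 h of LPS (SE, edgeR adjusted p = 0.000554 and 3.92e-08 at these times), from a lower level at 0 h to a higher one at 8 h. The log2 rise of Il1rl1 was also larger in p53-/- cells, by 1.55 ± 0.26 at 3 h of IL-1b (edgeR adjusted p = 0.00156). It was larger by 1.23 ± 0.26 at 3 h of TNF and 1.68 ± 0.26 at 8 h of LPS (edgeR adjusted p = 0.0440 and 0.000609). The level of Il1rl1 remained lower than in WT, and in CPM its rise was larger in WT. At 3 h of IL-1b it went from 1186 to 3206 CPM in WT and from 191 to 1513 CPM in p53-/- cells. At 8 h of LPS it went from 1203 to 4212 CPM in WT and from 193 to 2174 CPM in p53-/- cells.

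The difference for Il1r1 with IL-1b was found at 3 h alone, with a log2 of 0.71 ± 0.15 (SE, edgeR adjusted p = 0.00726 at 3 h and at least 0.927 at each other time). It rests on the WT library at 3 h of IL-1b, which also stood apart by transcript length. With the trend on transcript length and GC content removed, the difference was 0.57 and the F test kept its call (edgeR adjusted p = 0.00694). At 8 h of IL-1b, a time that does not use that library, the differences of Il1rn and Il1rl1 were 0.79 ± 0.16 and 1.34 ± 0.26 and did not pass on their own (edgeR adjusted p = 0.103 for each). The call of Il1rap with IL-1b (0.0441) was lost with DESeq2 (0.21), with that trend removed (0.06) and without either p53-/- replicate.

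Levels at the same time showed which member was higher in which genotype after stimulation. Those at 3 h of IL-1b rest on the WT library that stood apart by transcript length (Spearman rho -0.49). At 3 h of IL-1b, Il1a was lower in p53-/- cells (3.36 ± 2.0 CPM, SD, n = 2, against 12 CPM in the WT library, edgeR adjusted p = 5.14e-05), as were Il1rn and Il1rl1, and Il1r1 was higher. At 8 h of IL-1b, Il1b was 16.2 times higher in p53-/- cells (6.89 ± 1.6 against 0.413 CPM, 4 counts in WT, edgeR adjusted p = 3.81e-06) and Il33 was higher as well, while Il1rn, Il1r1, Il1rl1 and Il1rap were lower. Among all genes 16.5% and 10.8% were called higher, and 12.4% and 9.06% lower, at 3 and 8 h. At 3 h of TNF, Il1rn, Il1rl1 and Il1rap were lower in p53-/- cells and no member was higher. At 8 h of TNF, Il1a (5.37 ± 0.14 CPM against 2.05 CPM in WT) and Il1b (9.55 ± 0.78 against 4.73 CPM) were higher, and Il1rn, Il1r1, Il1rl1 and Il1rap were lower. The edgeR adjusted p was 0.0479 for Il1a and 0.0349 for Il1b, and both calls were lost with DESeq2 (0.0656 and 0.0576) and without either p53-/- replicate (0.0793 to 0.157). Among all genes 8.78% and 8.09% were called higher, and 7.8% and 7.3% lower, at 3 and 8 h of TNF. At 3 h of LPS, Il1a and Il1b were higher in p53-/- cells, by 1.82 and 2.22 times (edgeR adjusted p = 0.00353 and 1.8e-05), and Il1rn, Il1rl1 and Il1rap were lower. At 8 h of LPS, Il1a (1.46 times, 0.027) and Il1rn (1.34 times, 0.00549) were higher, Il1b was not called (log2 0.20 ± 0.14, 0.365), and Il1r1, Il1rl1 and Il1rap were lower. Among all genes 8.72% and 9.76% were called higher, and 7.91% and 8.71% lower, at these times. With DESeq2 the calls of Il1a at 3 h (0.055) and 8 h of LPS (0.26) and of Il1r1 at 8 h of LPS (0.17) were lost. Lost without one p53-/- line were also Il33 (without KO-2, 0.22) and Il1r1 (without KO-1, 0.09) at 8 h of IL-1b, Il1rn at 3 h of LPS (without KO-2, 0.1), and Il1a and Il1r1 at 8 h of LPS (without KO-1, 0.25 for each). With the line as a replicate block, a fit that takes the difference between KO-1 and KO-2 out of the error, Il33 was higher in p53-/- cells also at 3 h of IL-1b (0.000133), at 3 and 8 h of TNF (0.0016 and 0.00701) and at 3 and 8 h of LPS (0.0321 and 0.000613).

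Other genes of the IL-1 pathway were described from 3 lists. Of 14 further family members, 4 passed the filter (Il18, Il18rap, Il18bp and Il1rl2), and Il36b had 0 counts in all 45 libraries. The decoy receptor gene Il1r2 had at most 13 counts and the IL-18 receptor gene Il18r1 at most 4. At 3 h, 2 of these 4 were called higher with IL-1b, 1 with TNF and 2 with LPS, and none lower. Among all genes 21%, 18.4% and 21.9% were called higher at that time, and 21.8%, 17.6% and 22.1% lower. Il18rap, the accessory chain of the IL-18 receptor, lies in the same gene cluster as Il1r1 and Il1rl1 and rose by a log2 of 1.43 ± 0.16, 1.91 ± 0.17 and 1.56 ± 0.16 with IL-1b, TNF and LPS at 3 h (edgeR adjusted p = 8.07e-08, 4.44e-09 and 1.65e-08). It went from 8.78 ± 0.51 to 23.7 ± 3.8 CPM with IL-1b (SD, n = 2). Il1rl2, the IL-36 receptor, rose with IL-1b and LPS (log2 0.71 ± 0.19 and 0.73 ± 0.18) and had 0.38 ± 0.21 with TNF, where it was not called.

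Of 20 signalling genes downstream of the receptors, 19 passed the filter. At 3 h, 6 were higher and 3 lower with IL-1b, 7 and 2 with TNF, and 8 and 4 with LPS. Among all genes the share called lower at 3 h was 21.8%, 17.6% and 22.1%, beside 21%, 18.4% and 21.9% called higher. The median log2 change of the list was -0.05, -0.04 and 0.14, beside -0.02, -0.01 and -0.02 over all genes tested. Myd88, the adaptor of the receptor complex, rose by 1.5 ± 0.10 with LPS, and by 0.29 ± 0.10 with IL-1b and 0.40 ± 0.11 with TNF (log2, SE, edgeR adjusted p = 2.23e-12, 0.0212 and 0.00458). Peli1, a ubiquitin ligase of the same complex, rose by 1.30 ± 0.09, 0.38 ± 0.09 and 0.41 ± 0.09 in that order. Tollip, an inhibitor of IRAK1, rose by 0.44 with IL-1b, 0.34 with TNF and 0.35 with LPS. Ikbkg, which encodes the regulatory subunit of the IKK complex, fell by 0.28 with IL-1b, 0.55 with TNF and 0.60 with LPS.

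Of 16 genes for cytokine processing and the inflammasome, 13 passed the filter, and at 3 h 4 were higher and 3 lower with IL-1b, 4 and 3 with TNF, and 6 and 3 with LPS. Among all genes 21%, 18.4% and 21.9% were called higher at 3 h, and 21.8%, 17.6% and 22.1% lower. The median log2 change of the list was 0.07, -0.06 and 0.30, beside -0.02, -0.01 and -0.02 over all genes tested. Nlrp3, the sensor of the inflammasome that activates caspase-1, rose by 2.35 ± 0.29, 2.75 ± 0.29 and 4.21 ± 0.25 at 3 h (edgeR adjusted p = 3.73e-07, 6.25e-08 and 3.41e-13), and its change was 1.06 ± 0.34, 1.47 ± 0.33 and 2.67 ± 0.28 at 8 h (0.0226, 0.00168 and 2.63e-08). Casp4, the caspase that binds cytosolic LPS, rose by 1.74 ± 0.23, 2.11 ± 0.27 and 2.38 ± 0.22 at 3 h and by 3.42 ± 0.20 at 8 h of LPS. Casp1, whose product cleaves pro-IL-1 beta, did not exceed 5.46 CPM in any library. Ninj1, which acts in membrane rupture, rose by 0.55 to 0.90, and Gsdme, a gasdermin, fell by 0.89, 1.70 and 1.46 with IL-1b, TNF and LPS.

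The genes whose levels followed each member most closely were taken by Pearson r over the 15 p53-/- group means of log2 CPM, among 9918 or 9919 genes that reached 10 CPM. These groups share their 0 h level and stimuli, so the points are not independent and r is given as a description. Il1a and Il1b were closest to each other (r = 0.99), and next to both came Cd14 (0.97 and 0.98), the LPS co-receptor. For Il1rn the closest were Gbp3, Rnf213, Zbp1 and Ddx24 (0.97 for each), of which the first 3 are known as interferon-induced genes. For Il1r1 they were Ptprj, Igf2bp2, Hivep3 and Ubtd2 (0.99 for each). For Il1rl1 they were Serpinb2, Gch1, Rab11fip1 and Tnc (0.99 for each), and for Il1rap Mbd1, Sod2, Morc3 and U90926 (0.96 to 0.97). Il33 was closest to Insig2 (0.96) and Nos2 (0.95). Among the members themselves, Il1rl1 and Il1rap had r = 0.92 and Il1rn and Il1r1 had r = 0.45, the lowest of the 21 pairs.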

How the data were processed

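RNA-seq read counts per gene (mm9), made by the authors with STAR and featureCounts per the submitters' processing notes, were analysed in 45 libraries. These notes also name DESeq; versions and the strand setting of the counting are not given in the sources used here. The labels' protocols name a strand-preserving library kit and paired reads of 50 nt. The 5 entries of the deposited counts that name no gene held 24.7% of counts and were left out.

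Counts were fitted with edgeR 4.0.16 (R 4.3.3, limma 3.58.1) by the quasi-likelihood test with TMM factors (0.889 to 1.07), 30 groups of genotype, stimulus and time, and 15 residual degrees of freedom. A gene was kept where 2 or more libraries held it at 1 CPM or above (13851 genes), and p-values were adjusted by Benjamini-Hochberg over all of them at 0.05. WT groups, of 1 library each, were assumed to vary like the p53-/- groups. Genotype levels were fitted on sums per line. The labels name the p53-/- replicates KO-1 and KO-2 in all 15 groups, and the replicate numbers were taken to pair libraries by line: deviations from group means had a median correlation of 0.19 between groups (-0.17 to 0.50, over 0.1 in 73 of 105 pairs of groups). Folds from raw counts carry exact 95% intervals, which cover counting error only, with a floor of 3 counts over a group's libraries. The scripts were tested on simulated data. Alternatives were DESeq2 1.42.0, its size factors, other filters, the line as a block, a correction for transcript length and GC content, pooled 0 h libraries and left-out replicates.

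The members and gene lists were chosen with earlier results of these data known. Comparisons of levels at the same time and the leaving out of single libraries were added after seeing the data. Named genes were the members, the up to 4 genes per list with the smallest adjusted p at 3 h, and the 4 genes most like each member in Pearson r.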

Additional observations from a re-analysis of the deposited data

Results flagged for a closer look

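The change from 0 h differed between genotypes for 5 members, in 8 pairs of member and stimulus, by edgeR's F test over the 4 times with 1 WT library per group. Of all 13851 genes, 5.74% passed the same test for IL-1b, 0.462% for TNF and 2.66% for LPS. After IL-1b the adjusted p was 0.00989 for Il1b, 0.000335 for Il1rn, 0.0017 for Il1r1, 0.000136 for Il1rl1 and 0.0441 for Il1rap. After TNF it was 0.00401 for Il1rl1. After LPS it was 2.59e-08 for Il1rn and 0.00015 for Il1rl1. For Il1rn and Il1rl1 the difference at 3 and 8 h was toward a larger log2 rise in p53-/- cells with each stimulus named here. For Il1rl1 this was a larger ratio from a lower level at 0 h, and the rise in CPM was larger in WT. For Il1b no size could be fitted, since WT had 0 counts at 0 h. The WT library at 8 h of IL-1b had 4 counts of Il1b, where the p53-/- libraries had 55 and 75. With the trend on transcript length and GC content removed, the values after IL-1b were 0.0153 for Il1b, 0.000131 for Il1rn, 0.00694 for Il1r1, 0.000157 for Il1rl1 and 0.0602 for Il1rap.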

How the results depend on the processing

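No member's difference changed direction under an alternative where it had been called. The counts of calls after IL-1b, TNF and LPS (14, 17 and 17 over 4 times) were 13 to 17, 16 to 17 and 17 to 22 under other settings, and 12 to 15, 13 to 17 and 14 to 18 with a replicate or a library left out. From 3 to 8 h the count with TNF was 5, and 3 to 5 with a replicate or library left out. For LPS against TNF (4 members) the left-out range was 2 to 4. For LPS against IL-1b (2 members) it was 1 to 3, and pooling the 0 h libraries gave 6. The count for IL-1b against TNF (2 members) was least stable: it was 1 with DESeq2, 5 without a filter, 5 with the line as a replicate block, 6 with pooled 0 h libraries, and 0 to 2 with a replicate or library left out. The genotype difference in change after IL-1b (5 members) ranged from 3 to 5 on leaving out. That after TNF (1 member) was 2 without a filter, with the line as a replicate block, with the length and GC trend removed and with pooled 0 h libraries, the added member being Il1rn each time. The genotype level (7 members) gave 5 calls with DESeq2, with the 0 h libraries alone and in the fit on 45 libraries. The line as a replicate block changed no member's call other than those given beside the results. The 2 libraries of a group differed by more than sampling noise in all 15 groups (chi-square per degree of freedom 2.68 to 8.40). Depth limits Il1a and Il1b at 0 h, where a fold rests on 0 to 3 counts per library, and Il33 throughout.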
